A study of Mus musculus with 12 samples.

Results

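miR-143 and miR-145 are a pair of microRNAs processed from 1 primary transcript, and their array entries were followed here through an endoplasmic reticulum stress experiment. The members were every array entry named mmu-miR-143 or mmu-miR-145, star strands included, which gave 3 entries (miR-143, miR-145 and miR-145*) of the 650 miRNAs on the array, 611 of them mouse. No array entry carried the name of the star strand of miR-143, so that strand was not measured. The cells were mouse embryonic fibroblasts (MEFs) of C57BL/6 background, and their miRNAs were measured on 12 Agilent 1-colour arrays. Cells labelled ATF6bKO, deficient in ATF6b, were untreated or exposed to 2 ug/mL tunicamycin for 12 h or 24 h, and cells labelled ATF6bWT were handled the same way. Each of these 6 groups has 2 arrays, described by the design text as independent experiments. The labels do not say how the knockout allele was made or how many embryos or cultures the cells came from. With miRNA probes only, the genotypes rest on their labels.

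The miR-143 and miR-145 hairpins lie side by side within the annotated span of the long noncoding RNA gene Carmn, also called Mir143hg. The transcript is best known from smooth muscle and other mesenchymal cells, where serum response factor and its coactivator myocardin drive it. miR-145 is known to repress Klf4 and Klf5 and miR-143 to repress Elk1, and both favour the contractile, differentiated state of smooth muscle over the proliferating one. Loss of the cluster in mice leaves smooth muscle that contracts poorly. Tunicamycin blocks N-linked glycosylation, so unfolded glycoproteins build up in the endoplasmic reticulum. ATF6b is a membrane-bound transcription factor that is cleaved and sent to the nucleus under that stress. By its design text, the study looked for miRNAs whose response at 12 h needs ATF6b.

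Of the array's mouse miRNAs, the 5 whose levels followed miR-143 most closely over the 12 arrays are shown by their mature sequences, since they are the measured companions of its pattern. Likeness was the Pearson correlation of log2 level over 12 arrays, among the 175 other miRNAs tested. Sequences and positions are from RefSeq on GRCm38.p6, in which all 5 names matched, and the capitals mark the seed, bases 2 to 8.
miR-434-3p: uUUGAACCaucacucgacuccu
miR-27b: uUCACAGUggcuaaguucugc
miR-31*: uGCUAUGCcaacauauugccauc
miR-199a-3p: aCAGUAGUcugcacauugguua
miR-24: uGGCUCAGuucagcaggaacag
The 5 seeds are all different. miR-434-3p is encoded at chr12:109594565-109594586 on the plus strand, in the hairpin Mir434. miR-27b is encoded at chr13:63300760-63300780 on the plus strand. miR-31*, the star strand of Mir31, lies at chr4:88910577-88910599 on the minus strand. miR-199a-3p comes from Mir199a-2 at chr1:162217883-162217904 on the plus strand and from Mir199a-1 at chr9:21496498-21496519 on the minus strand. miR-24 comes from Mir24-2 at chr8:84208875-84208896 and from Mir24-1 at chr13:63301251-63301272, both on the plus strand. Arrays read the mature strand, so copies of one mature sequence cannot be told apart.

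Between 114 and 191 miRNAs were detected per array. The 75th percentile of intensity, over the 93 miRNAs detected on all 12 arrays, lay from 412 to 623 on 9 arrays. It was 246 on the second knockout array at 12 h, 208 on the second knockout array at 24 h and 257 on the second wild-type array at 24 h. No spot was saturated. All treated arrays lie on 1 slide and all untreated arrays on the other, so treatment and slide cannot be told apart. On both slides the knockout arrays lie in the second row and the wild-type arrays in the first, so genotype and slide row cannot be told apart either. Fibroblast and mesenchymal miRNAs dominated the signal: 19 of their 20 array entries were detected on at least 1 array. These entries took 52.1% to 55.9% of summed intensity on untreated arrays and 45.3% to 50.3% on treated arrays. None of 6 blood and none of 2 endothelial entries was detected on any array. Of 7 striated muscle entries, only miR-206 was detected.

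miR-143 was detected on all 12 arrays, and its signal came from 2 probes with 10 spots each. Its summed background-subtracted intensity was 575 and 440 in untreated knockout cells, 455 and 201 in knockout cells at 12 h, and 373 and 111 in knockout cells at 24 h. In wild-type cells it was 414 and 262 when untreated, 108 and 70.3 at 12 h, and 104 and 26.5 at 24 h. The 4 treated wild-type arrays are the 4 lowest. The highest of them, 108, is close to the lowest knockout value of 111, which comes from a dim array. All 20 spots were well above background on 10 arrays. The exceptions were the second knockout array at 24 h, with 19 such spots, and the second wild-type array at 24 h, with 4, so the level of miR-143 on that wild-type array is the least certain.

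As a share of all intensity on its array, miR-143 took 0.816% and 0.748% in untreated knockout cells, 0.815% and 0.603% in knockout cells at 12 h, and 0.683% and 0.436% in knockout cells at 24 h. The wild-type shares were 0.602% and 0.475% untreated, 0.157% and 0.127% at 12 h, and 0.167% and 0.0879% at 24 h. Here every knockout array stood above every treated wild-type array, the dim ones included. In bulk cells, fewer cells that make miR-143 and less miR-143 per cell cannot be told apart.

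For comparison between arrays, intensities were divided by each array's 75th percentile and put on a log2 scale, called the level below. The level of miR-143 was -0.12 and -0.45 in untreated knockout cells, 0.03 and -0.29 in knockout cells at 12 h, and -0.14 and -0.91 in knockout cells at 24 h. It was -0.46 and -1.04 in untreated wild-type cells, -2.51 and -2.76 in wild-type cells at 12 h, and -2.49 and -3.27 in wild-type cells at 24 h. Ordered by their mean level, the groups ran from knockout at 12 h (-0.13 ± 0.22, SD, n = 2), untreated knockout (-0.28 ± 0.23) and knockout at 24 h (-0.53 ± 0.54) to untreated wild type (-0.75 ± 0.41), wild type at 12 h (-2.64 ± 0.18) and wild type at 24 h (-2.88 ± 0.56). Each neighbouring pair in that order overlapped, except untreated wild type and wild type at 12 h, whose means lay 1.89 apart. Untreated wild type overlapped neither untreated knockout nor knockout at 12 h. The treated wild-type groups lay well below the other 4 and overlapped each other.

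**Figure D1:**
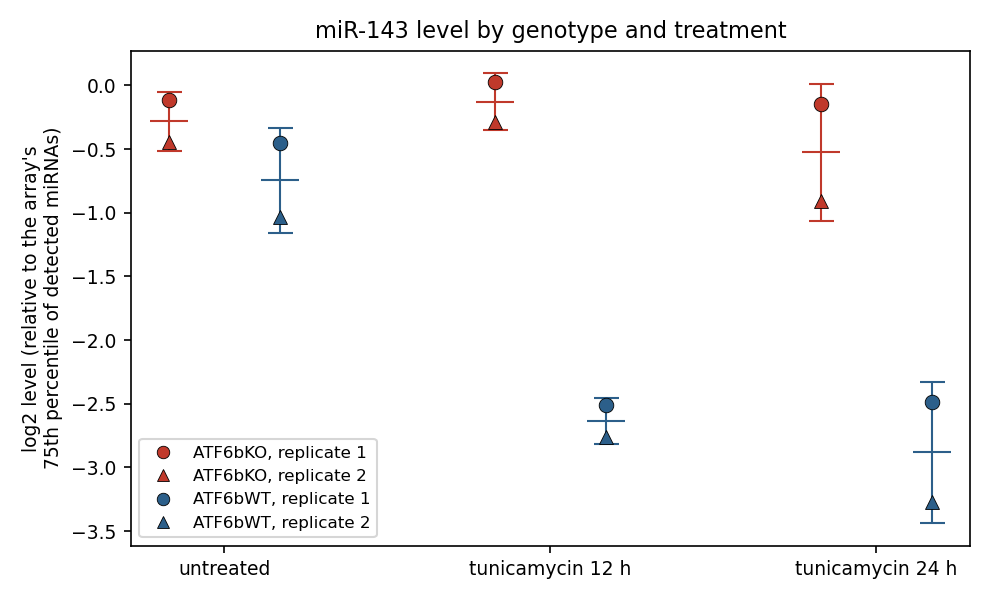
Level of miR-143 (log2, relative to the 75th percentile of the array) on each of the 12 arrays, by treatment, with ATF6bKO left of ATF6bWT; circles are replicate 1, triangles replicate 2, and the horizontal line and bars are the mean ± SD (n = 2). The 4 treated wild-type arrays lie from -3.27 to -2.49, below all others, which lie from -1.04 to 0.03.

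In knockout cells miR-143 did not pass the test under tunicamycin. At 12 h its log2 change against untreated knockout cells was 0.15 ± 0.36 (SE; limma, Benjamini-Hochberg adjusted p = 0.783), with a 95% interval from -0.67 to 0.98. In that comparison 25.6% of the 176 miRNAs tested were called at an adjusted p below 0.05 (45 miRNAs, and 79 with the run as a block). At 24 h the change was -0.24 ± 0.36 (limma adjusted p = 0.648), with an interval from -1.07 to 0.58, where 30.7% were called (54 miRNAs, and 88 with a block for the run). The arrays of the treated and untreated knockout groups overlapped at both times. The sign of the change at 12 h was not stable: it was -0.10 when arrays were scaled over all miRNAs, -0.02 after quantile normalization and -0.16 when scaled by summed signal. Without the 3 dim arrays, the change at 24 h was 0.14. The intervals reach -0.67 at 12 h and -1.07 at 24 h, so a moderate fall in knockout cells was not detectable with these arrays.

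In wild-type cells miR-143 fell by 1.89 ± 0.36 at 12 h (3.70-fold; limma adjusted p = 0.00492), with a 95% interval of the log2 change from -2.72 to -1.06. Among all miRNAs 23.9% were called lower there, and 38.1% in either direction (67 miRNAs, and 102 with the run as a block). It fell by 2.14 ± 0.36 at 24 h (4.39-fold; limma adjusted p = 0.00225), with an interval from -2.96 to -1.31, where 29.5% were called lower and 43.2% in either direction (76 miRNAs, and 115 with a block for the run). The treated and untreated wild-type arrays did not overlap at either time. A fall was thus common in these comparisons. Among the 93 miRNAs detected on all 12 arrays, 0 had a lower log2 change than miR-143 at 12 h and 0 at 24 h. That set leaves out miRNAs that fell below detection. Over all tested miRNAs, 2 had a lower log2 change than miR-143 at 12 h and 2 at 24 h. The median change of all tested miRNAs was -0.05 at 12 h and -0.03 at 24 h. Set against the median under each of 4 array scalings, the change of miR-143 ran from -1.84 to -1.81 at 12 h and from -2.12 to -1.99 at 24 h. Leaving out any single array kept the call at both times. Some processing settings ended the call. With arrays scaled over all miRNAs the changes were -1.88 and -2.17 (limma adjusted p = 0.107 at 12 h and at 24 h), with normexp on all spots -0.29 and -1.04, and on the deposited values -1.86 and -1.49. With the software's total gene signal the 24 h change was -1.28, also not called. Normexp without the spots of bright local background on 1 array, chosen after seeing the data, gave smaller falls that were called, -1.09 and -1.04.

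From 12 h to 24 h no further change of miR-143 passed the test. Between 24 h and 12 h of tunicamycin the log2 difference was -0.40 ± 0.36 in knockout cells (limma adjusted p = 0.833; 0.568% of miRNAs called) and -0.25 ± 0.36 in wild-type cells (adjusted p = 0.940; 1.14% called). Arrays of 24 h and 12 h that shared a run differed by -0.17 and -0.62 in knockout cells, and by 0.021 and -0.51 in wild-type cells. The wild-type difference changed sign, to 0.15, without the second array at 24 h, the one with 4 of 20 spots above background. The 95% interval of that wild-type difference, from -1.07 to 0.58, leaves room for a further fall.

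The response to tunicamycin differed between genotypes at both times. The log2 change under tunicamycin was higher in knockout than in wild-type cells by 2.04 ± 0.50 at 12 h (limma adjusted p = 0.0262; 95% interval 0.87 to 3.21) and by 1.89 ± 0.50 at 24 h (adjusted p = 0.0365; interval 0.72 to 3.06). Of all miRNAs, 22.2% were called higher in the 12 h test and 19.9% in the 24 h test, with 24.4% and 20.5% in either direction (36 miRNAs at 24 h, and 60 with the run as a block). Among the 93 miRNAs detected on all arrays, 0 had a larger difference than miR-143 at 12 h and 1 had at 24 h. Over all tested miRNAs, 7 had a larger difference at 12 h and 10 at 24 h. The median difference of all miRNAs was 0.37 at 12 h and 0.44 at 24 h, so the table as a whole leaned the same way. Relative to the median, over 4 scalings, it ran from 1.66 to 1.88 at 12 h and from 1.45 to 1.46 at 24 h.

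These response differences were the least secure calls for miR-143. Without 1 array, the 12 h call was lost in 5 of 12 cases, with differences from 1.75 to 2.20 and adjusted p from 0.0560 to 0.0970. Those 5 were the second untreated knockout array, both knockout arrays at 12 h, the first untreated wild-type array and the second wild-type array at 12 h. The 24 h call was lost in 9 of 12 cases, with differences from 1.50 to 2.06 and adjusted p from 0.0551 to 0.131. It was kept, at 2.18 to 2.28, only without the second knockout array at 24 h, the first wild-type array at 24 h or the second untreated wild-type array. The direction was kept in every case. Among the other settings tried, 9 ended the 12 h call, with values as low as 0.44 (normexp on all spots), and 10 ended the 24 h call, with values as low as 0.18 (deposited values). Within runs the spread was smaller, and fitting the run as a block gave an adjusted p of 0.00144 at 12 h and 0.00227 at 24 h.

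**Figure D2:**
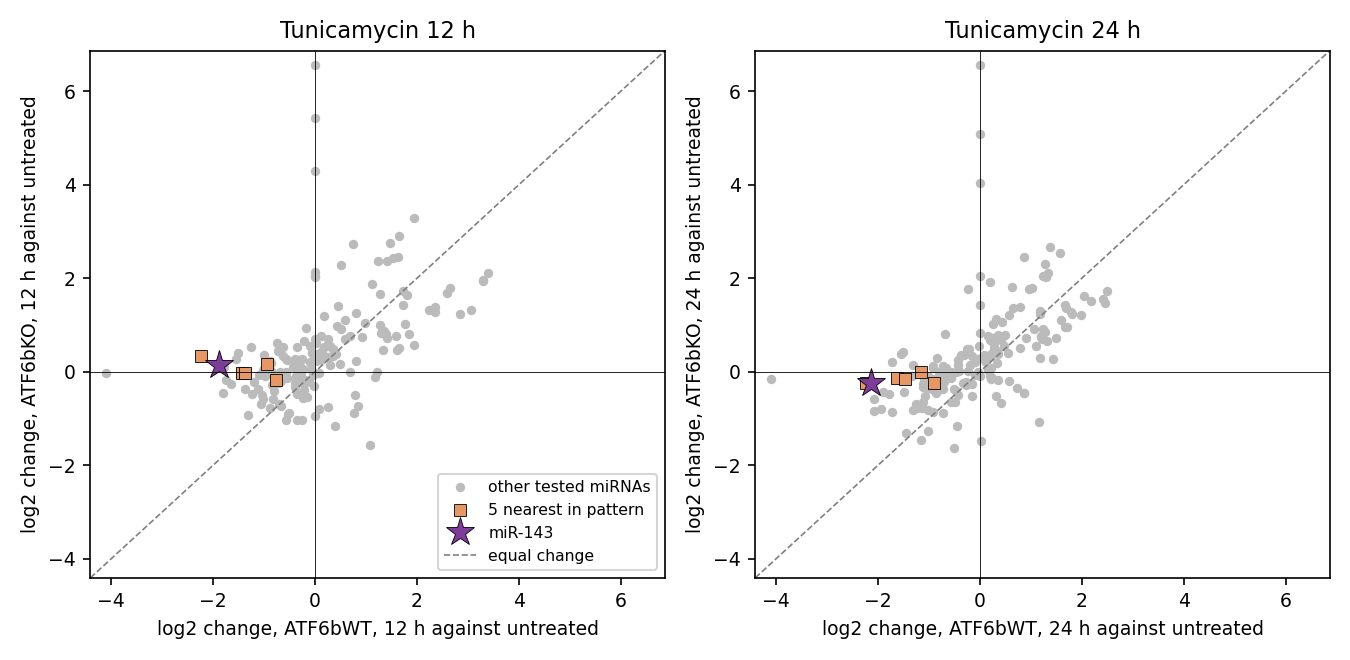
Log2 change of each of the 176 tested miRNAs under tunicamycin, in ATF6bKO cells (vertical) against ATF6bWT cells (horizontal), at 12 h (left) and 24 h (right); the star is miR-143, squares are the 5 miRNAs nearest to it in pattern, and the dashed line marks equal change. miR-143 lies near 0 on the vertical axis (0.15 and -0.24) and far to the left on the horizontal axis (-1.89 and -2.14).

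Compared directly, untreated cells of both genotypes had levels of miR-143 that did not pass the test. The untreated knockout arrays were higher than their wild-type run partners by 0.34 and 0.59, a mean log2 difference of 0.46 ± 0.36 (limma adjusted p = 0.548; 95% interval -0.36 to 1.29), and the nearest arrays of the genotypes, at -0.45 and -0.46, were almost level. In that comparison 11.4% of miRNAs were called (20 miRNAs, 33 with the run as a block and 37 with the replicate number as a block). With the run as a block, miR-143 still did not pass (adjusted p = 0.120).

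Under tunicamycin the knockout cells held several times more miR-143. The difference was 2.51 ± 0.36 at 12 h (5.68-fold; limma adjusted p = 0.00131) and 2.36 ± 0.36 at 24 h (5.12-fold; adjusted p = 0.00189). Of all miRNAs 29.5% were called higher in knockout cells at 12 h and 27.3% at 24 h, with 38.1% and 34.7% in either direction. Among the 93 miRNAs detected on all arrays, 0 had a larger positive difference at either time. That set leaves out miRNAs undetected on some arrays. Over all tested miRNAs, 6 had a larger positive difference than miR-143 at 12 h and 5 at 24 h. The median difference of all miRNAs was 0.23 at 12 h and 0.25 at 24 h, and other scalings moved it by as much as -0.37. Relative to the median, over 4 scalings, miR-143 differed by 2.23 to 2.38 at 12 h and by 2.01 to 2.10 at 24 h. Within runs the knockout array was higher by 2.54 and 2.47 at 12 h and by 2.34 and 2.37 at 24 h, close to each other although 3 of the 4 treated arrays of the second run were dim. These differences were called whichever single array was left out. With arrays scaled over all miRNAs they were 2.09 and 1.97 and did not pass (limma adjusted p = 0.106 and 0.141). They did not pass with normexp on all spots (0.77 and 1.26) or on the deposited values (1.78 and 0.83) either, nor did the 24 h difference with the software's total gene signal (1.17, adjusted p = 0.313). Over all 3 conditions, the knockout array was higher in 6 of 6 run pairs (mean 1.78 ± 1.02 SD; two-sided exact sign-flip permutation test, p = 0.03125, the smallest that 6 pairs allow). The pairs at 12 h and 24 h shared runs, and untreated and treated pairs were pooled. That p-value therefore takes linked pairs as independent.

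Epithelial miRNAs moved with the same comparison. Their 11 entries took 2.25% to 2.97% of summed intensity in knockout cells at 12 h and 2.10% to 2.76% at 24 h. They took 0.0245% to 0.0350% in untreated knockout cells, and 0.0514% to 0.112% over all wild-type arrays. In knockout cells 7 of the 11 were detected on at least 1 array at each time of tunicamycin and none on any untreated array, and in wild-type cells 2 of 11 were detected in each group. Their part in the difference of miR-143 was not tested. On the knockout arrays with those epithelial miRNAs, the level of miR-143 overlapped that of untreated knockout cells.

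Both miR-143 probes gave the same picture. Probe A_54_P2404 changed by -1.79 and probe A_54_P2405 by -1.96 in wild-type cells at 12 h, and by -2.36 and -2.01 at 24 h. The difference of knockout from wild-type cells was 2.46 for the first probe and 2.54 for the second at 12 h, and 2.44 and 2.31 at 24 h. The response difference at 12 h was 2.05 and 2.04, and at 24 h 2.03 and 1.81. Taken alone, the first probe missed the threshold for the response difference at both times (limma adjusted p = 0.0576 and 0.0692). The intensity of the first probe was a fraction of the second that ran from 0.489 to 0.687 on the 6 knockout arrays and from 0.433 to 0.781 on the 6 wild-type arrays, with both wild-type extremes on second-run tunicamycin arrays.

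miR-145 was at the limit of the array. It was called detected on 1 of 12 arrays, the first untreated knockout array, where its summed intensity was 25.5 and none of its 20 spots was well above background. On the other untreated arrays it was 6.55 in knockout cells, and 13.1 and 3.26 in wild-type cells. Under tunicamycin all 8 values were below 0, from -8.70 to -0.0993 in knockout cells and from -10.3 to -5.26 in wild-type cells. The 4 untreated values therefore all lay above the 8 treated ones, but untreated and treated cells are on different slides. The median of the negative control spots lay from 1.37 to 4.57 and their 95th percentile from 6.86 to 14.6. Each miR-145 value sums 2 probes, and of the untreated values only 25.5 exceeded that 95th percentile on its own array. On the array of that value the percentile was 11.2, and the 2 probes alone read 7.16 and 18.3. On the first untreated wild-type array 2 of the 20 spots were well above background.

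miR-145*, the star strand, was detected on no array. Its 4 probes summed to between -0.0197 and 7.90 in knockout cells and between -3.38 and 5.37 in wild-type cells. Neither miR-145 nor miR-145* was detected on both arrays of any group, so neither entered the test and no fold change is given. When all 611 mouse miRNAs were tested without that filter, the smallest limma adjusted p of miR-145 in the 11 comparisons was 0.520. In that test miR-145 stood at the floor on every treated array, so the outcome was largely set by the floor. A response of miR-145 like that of miR-143 was not detectable with these probes, and absence of miR-145 from the cells cannot be read from them.

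**Figure D3:**
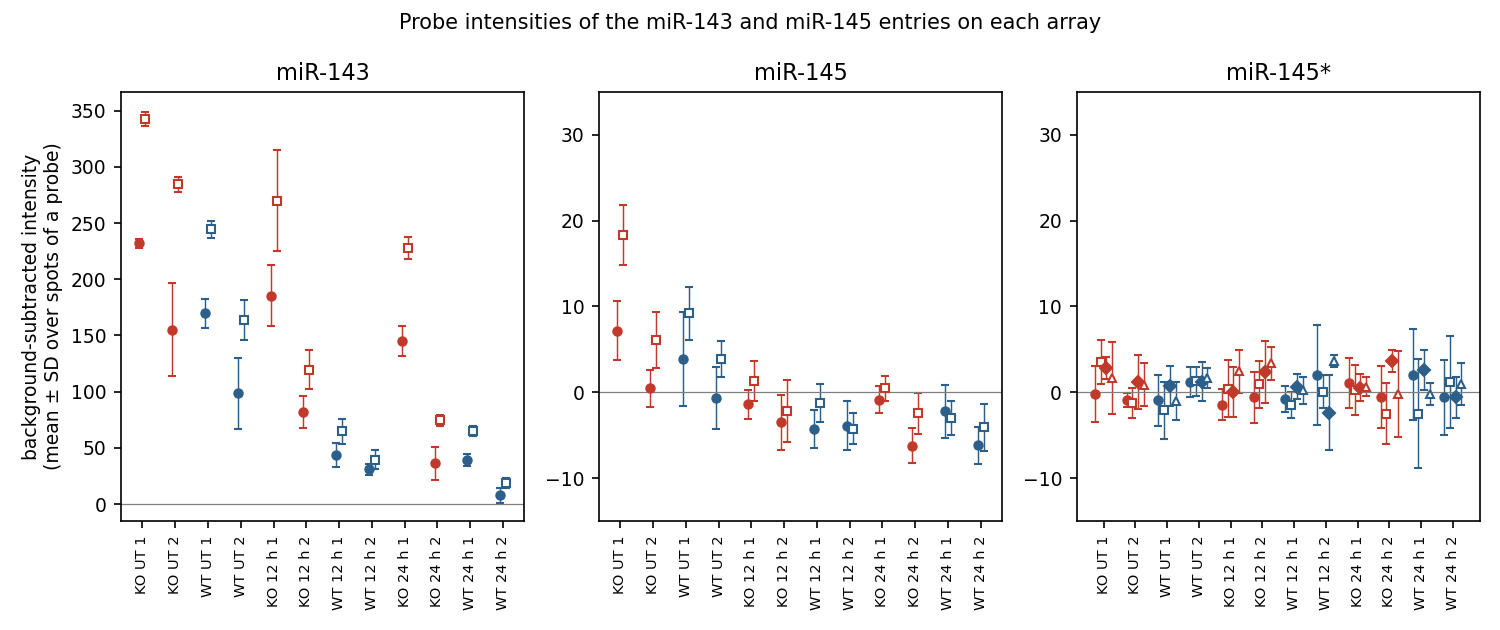
Background-subtracted intensity (mean ± SD over the spots of a probe) of each probe of miR-143 (2 probes), miR-145 (2 probes) and miR-145* (4 probes) on each array, in red for ATF6bKO and blue for ATF6bWT, with UT for untreated and the last digit of each label the replicate; the vertical scale of the first panel differs from that of the other panels. The miR-143 probes lie above 0 and reach their lowest values in treated wild-type cells. On the second wild-type array at 24 h, probe A_54_P2404 read 8.01 ± 6.68, with 0 of 10 spots well above background. The probes of miR-145 and miR-145* lie around 0, and the highest value, 18.3, is of miR-145 on the first untreated knockout array.

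The label of a contractile cluster was set against other miRNAs reported with the contractile or the proliferating state of smooth muscle. Of 5 reported with the contractile state, 2 could be tested, miR-10a and miR-100. miR-10a rose by 1.20 ± 0.13 in knockout cells at 12 h (limma adjusted p = 0.000286) and by 1.02 ± 0.13 at 24 h (adjusted p = 0.000758), and had log2 changes of 0.17 and 0.26 in wild-type cells that did not pass. Its log2 difference of knockout from wild-type cells was -0.68 ± 0.13 untreated (limma adjusted p = 0.0144). Under tunicamycin that difference was 0.34 at 12 h and 0.08 at 24 h, and neither passed. The response difference of miR-10a did pass, higher in knockout cells by 1.02 ± 0.19 at 12 h (limma adjusted p = 0.00797). At 24 h it was 0.76 ± 0.19 (limma adjusted p = 0.0259). miR-100 had changes of -0.12 and -0.22 in knockout cells that did not pass. It fell by 0.55 ± 0.13 in wild-type cells at 12 h (limma adjusted p = 0.0148) and by 0.70 ± 0.13 at 24 h (adjusted p = 0.00389). Its response difference, 0.43 at 12 h and 0.48 at 24 h, did not pass. Of 8 miRNAs reported with the proliferating state, 7 were tested. None was called in knockout cells, where 25.6% of all tested miRNAs were called at 12 h and 30.7% at 24 h. In wild-type cells 2 fell at 12 h and 3 at 24 h and none rose, among them miR-24 (-0.95 and -1.15), beside 23.9% and 29.5% of all miRNAs called lower. The medians of the 7 in wild-type cells were -0.35 and -0.70, beside -0.05 and -0.03 over all tested miRNAs. Without the 3 dim arrays the medians of the 7 in wild-type cells were -0.35 and -0.52. miR-21, the best known of the 7, had changes of -0.05 and 0.03 in wild-type cells that did not pass. In untreated cells 1 of the 7, miR-221, was called lower in knockout cells (-1.28; limma adjusted p = 0.00779), beside 11.4% of miRNAs called. At 12 h 2 were called higher and 1 lower, and at 24 h 2 higher, beside 38.1% and 34.7% in either direction. miR-24 was higher at both times (1.04 and 1.07), and miR-221 was the lower one (-0.62).

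Among fibroblast and mesenchymal miRNAs, falls in wild-type cells were common. In knockout cells 2 of the 18 tested rose and 1 fell at 12 h, and the same counts held at 24 h, with median changes of 0.05 and -0.13, where 21.6% of all tested miRNAs were called higher and 3.98% lower at 12 h, and 25.6% and 5.11% at 24 h. In wild-type cells 1 rose and 11 fell at 12 h and at 24 h, with medians of -0.67 and -0.95, where 14.2% of all miRNAs were called higher at 12 h and 13.6% at 24 h, and the shares called lower were the 23.9% and 29.5% given above. Without the 3 dim arrays those wild-type medians were -0.67 at 12 h and -0.79 at 24 h. The change of miR-143 at 12 h was -1.89 beside that median of -0.67. The response difference was called for 7 of the 18 at 12 h and 6 at 24 h, all higher in knockout cells. Its median over the 18 was 0.62 and 0.74, beside 0.37 and 0.44 over all tested miRNAs. Without the dim arrays the median over the 18 was 0.66 and 0.78. Over all tested miRNAs 39 of 43 calls at 12 h and 35 of 36 at 24 h were also higher, 22.2% and 19.9% of the 176. Of the 4 most abundant, miR-22 fell by 0.57 ± 0.17 in wild-type cells at 12 h (limma adjusted p = 0.0362), miR-199a-3p fell by 0.76 ± 0.13 (adjusted p = 0.00263), and miR-21 and miR-125b-5p, with -0.05 and -0.15, did not pass. Most miRNAs of the proliferating-state list, miR-21 and miR-24 among them, and miR-100 are also in this list, so the counts are not separate. The list holds 3 of the companions shown above, miR-27b, miR-24 and miR-199a-3p.

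Those companions followed miR-143 closely over the arrays. miR-434-3p had a Pearson correlation of 0.992 and a Spearman correlation of 0.958 with miR-143 over the 12 arrays, miR-27b 0.990 and 0.944, miR-31* 0.980 and 0.940, miR-199a-3p 0.978 and 0.839, and miR-24 0.977 and 0.853. Of the 175 other miRNAs tested, 22 had a Pearson correlation above 0.9, the median was 0.25 and the lowest was -0.96, of miR-218. The 12 points share 6 groups, 4 runs and 1 scaling factor per array, and the companions were chosen for this likeness, so their values are a description.

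miR-434-3p had levels of -1.35 and -1.55 in untreated knockout cells, -1.37 and -1.58 at 12 h and -1.35 and -1.81 at 24 h. Its wild-type levels were -1.62 and -1.84 untreated, -2.92 and -3.39 at 12 h and -3.16 and -3.53 at 24 h. As with miR-143, only the 4 treated wild-type arrays stood apart. In knockout cells the log2 changes at 12 h were -0.02 for miR-434-3p, -0.01 for miR-27b, -0.17 for miR-199a-3p and 0.18 for miR-24. In wild-type cells they were -1.43 for miR-434-3p, -1.37 for miR-27b, -0.76 for miR-199a-3p and -0.95 for miR-24, each smaller in size than that of miR-143. miR-31* was detected on 5 of 6 knockout arrays and on the 2 untreated wild-type arrays, and it lay at the floor of -5.71 on all 4 treated wild-type arrays, so its fall there has no measured size.

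**Figure D4:**
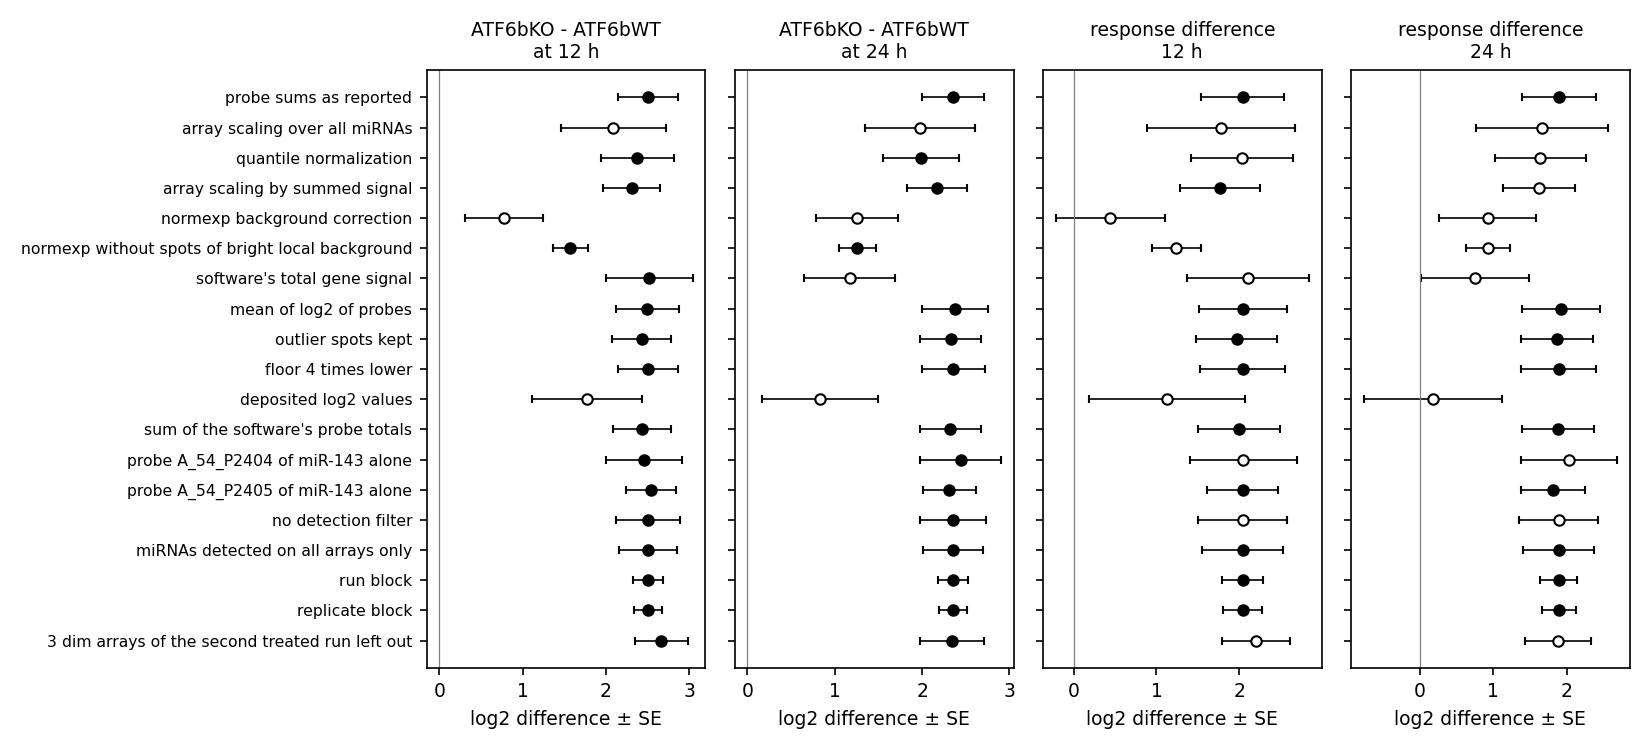
Log2 difference (± SE) of miR-143 between ATF6bKO and ATF6bWT cells at 12 h and 24 h of tunicamycin (left panels) and of its response to tunicamycin between the genotypes (right panels), under the reported processing (top) and the other settings tried; filled points have a limma adjusted p below 0.05 and open points do not. All values are above 0, from 0.77 to 2.66 for the genotype difference at 12 h and from 0.18 to 2.03 for the response difference at 24 h.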

How the data were processed

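The authors deposited scanner files with spot intensity on a linear scale, for which the submitters' processing notes name Agilent Feature Extraction 10.7.1.1, and a table of log2 values. Those deposited log2 values match the total gene signal of that software within 1.18e-06. Spots of a probe were averaged without marked outliers, probes of a miRNA summed, and arrays divided by their 75th percentile (taken over 93 miRNAs with a detection call on every array), then floored at 0.0191 (log2 -5.71). limma 3.58.1 in R 4.3.3 (lmFit, eBayes; 6 groups, 6 residual degrees of freedom) tested 176 mouse miRNAs detected on both arrays of a group in 11 comparisons, with Benjamini-Hochberg adjustment over the 176 and a threshold of 0.05. The code was tested on simulated data. Members and lists were chosen with earlier results of these data known. Named beside the members are the 5 miRNAs with the highest correlation and up to 4 of the most abundant of each list, with miR-24 and miR-206 named as list examples. Raw file names in the labels show that same-numbered arrays of both genotypes shared a run. Their deviations from group means correlated at 0.48 to 0.91 within a slide and at -0.38 to -0.05 between slides, so p-values without a block take linked arrays as independent. The number of arrays limits the precision. Alternatives covered scaling, background (normexp on the median spot signal, since the files have no column of mean signal), summary, filter, floor, outliers, run and replicate blocks, and leaving out arrays. The planned within-array test of miR-145 minus miR-143 was not run because miR-145 was detected on 1 array.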

Additional observations from a re-analysis of the deposited data

Results flagged for a closer look

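The response of miR-143 to tunicamycin differed between genotypes by a test of the difference itself. Its log2 change was higher in knockout than in wild-type cells by 2.04 at 12 h (limma adjusted p = 0.0262) and by 1.89 at 24 h (adjusted p = 0.0365). Leaving out 1 array lost the call in 5 of 12 cases at 12 h and in 9 of 12 at 24 h. Of the other settings tried, 9 lost it at 12 h and 10 at 24 h, with values down to 0.44 and 0.18. Knockout minus wild-type levels were positive in 6 of 6 run pairs, and were 2.54, 2.47, 2.34 and 2.37 in the treated pairs beside 0.34 and 0.59 in the untreated pairs.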

How the results depend on the processing

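The values of miR-143 were recomputed under 30 alternatives for each comparison. With run or replicate number as a block, every miR-143 value and call was kept (replicate block: 2.04 at 12 h and 1.89 at 24 h for the response difference, adjusted p = 0.00139 and 0.00199), and the run block raised counts of called miRNAs as given in the results, and also from 43 to 61 for the response difference at 12 h and from 67 to 91 and 61 to 84 for knockout against wild type at 12 h and 24 h. The largest losses came with scaling over all miRNAs, normexp, the software's totals and the deposited values. In knockout cells against untreated, the change at 12 h was -0.10 (scaling over all miRNAs), -0.020 (quantile), -0.16 (summed signal, chosen after seeing the data) and -0.73 (deposited log2 values). The change at 24 h was 0.14 without the 3 dim arrays (also chosen later). In wild-type cells the fall was no longer called at 12 h with scaling over all miRNAs (-1.88), normexp (-0.29) and deposited values (-1.86), nor at 24 h with those settings (-2.17, -1.04 and -1.49) and the software's total gene signal (-1.28).

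Knockout minus wild type was not called at 12 h with scaling over all miRNAs (2.09), normexp (0.77) and deposited values (1.78), nor at 24 h with those settings (1.97, 1.26 and 0.83) and the total gene signal (1.17). The response difference at 12 h was not called with scaling over all miRNAs (1.78), quantile normalization (2.03), normexp (0.44), normexp without spots of bright local background (1.24), total gene signal (2.11), deposited values (1.13), the first probe alone (2.05), no detection filter (2.04) and without the 3 dim arrays (2.20). At 24 h those 9 settings gave 1.66, 1.64, 0.93, 0.93, 0.75, 0.18, 2.03, 1.89 and 1.88, and scaling by summed signal 1.63, none of them called. The wild-type difference of 24 h from 12 h changed sign with the total gene signal (0.75), deposited values (0.37), normexp without bright spots (0.047) and without the 3 dim arrays (0.15). The paired difference had an exact p of 0.0625 with scaling over all miRNAs (1.46), total gene signal (1.37) and deposited values (1.09). 

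Leaving out 1 array gave -0.012 to 0.32 and -0.63 to 0.14 in knockout cells at 12 h and 24 h, -2.18 to -1.60 and -2.53 to -1.74 in wild-type cells, 1.75 to 2.33 and 1.50 to 2.28 for the response difference, and -0.64 to 0.15 for 24 h against 12 h in wild type. Leaving out 1 pair gave 1.62 to 2.06, at the smallest p that 5 pairs allow, 0.0625. The wild-type array at 12 h, replicate 1, has 9 spots whose local background exceeds 10 times the array's median, and normexp on all spots gave -0.29 there. Without those spots (chosen after seeing the data) the falls were called, at -1.09 and -1.04 (adjusted p = 0.0111 and 0.0152). Normexp added an offset of 50 to each spot, which makes log2 changes smaller at low intensity. Its share in these smaller falls was not tested, nor was the cause of the other changes. Over the alternatives the number of miRNAs called ran from 0 to 79 for knockout cells at 12 h (45 as reported), 0 to 88 at 24 h (54), 0 to 102 and 0 to 115 for wild-type cells (67 and 76), 0 to 61 and 0 to 60 for the response differences (43 and 36), 0 to 37, 0 to 91 and 0 to 84 for knockout against wild type untreated, at 12 h and at 24 h (20, 67 and 61). limma called 0 in every comparison on the deposited values, which are not scaled between arrays, with 1 to 28 miRNAs at an unadjusted p below 0.05.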

Other observations

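The deposited log2 values hold 1 number for miR-145, 8.62 on the first untreated knockout array. It comes from a total gene signal of 394, while the software's own totals for the probes of miR-145 on that array sum to 16.9, a ratio of 23.3. For miR-143 the total lies within 1% of the sum of probe totals on 11 arrays (largest difference 0.0003%), and on the second wild-type array at 24 h it is 84.9 beside 17.6, a ratio of 4.83. Over all miRNAs, 628 of 1906 detected values (32.9%) had a total more than 1.01 times that sum. With the sum of probe totals in place of the total gene signal (chosen after seeing the data), the difference of knockout from wild-type cells at 24 h was 2.32, beside 1.17 with the total.

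The first array of each group had the higher level of miR-143, by 0.33 in untreated knockout cells, 0.32 at 12 h and 0.76 at 24 h, and by 0.58, 0.25 and 0.79 in the matching wild-type groups. The median over all tested miRNAs differed between the same arrays by -0.03 to 0.23.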
